A study of Rattus norvegicus with 12 samples.

Results

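The TEAD and VGLL transcription partners of Yap and Wwtr1 were followed in cultured rat cardiac fibroblasts depleted of either or both of these coactivators. The members are 8 genes: the coactivators Yap1 and Wwtr1, the DNA-binding factors Tead1, Tead2, Tead3 and Tead4, and the cofactors Vgll3 and Vgll4. Of these, 6 were among the 12271 genes of the expression table, and Tead4 and Vgll3 were not analysed here. Each of the 6 exceeded the minimum of 10 normalized counts on average and was tested. The row named Taz was read as tafazzin, an unrelated mitochondrial enzyme whose symbol is also an alias of Wwtr1, and was not used.

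Fibroblasts came from hearts of neonatal Sprague Dawley rats at postnatal day 2, per the labels and the study's methods. They were transfected with 25 nM siRNA. The series design text counts 48 hours from transfection to collection, while the study's methods count them from a change of medium after it. Replicates came from separate pooled litters. The groups were negative siRNA (a universal non-targeting control, whose libraries are called control libraries), Yap siRNA, Wwtr1 siRNA and Yap+Wwtr1 siRNA, each with 3 libraries, 12 libraries in all. No genetic allele was involved, all groups were transfected, and a pair of siRNAs was used per target. The label of the Yap+Wwtr1 group names the Wwtr1 siRNAs alone, and the series design text speaks of myocytes where the labels speak of fibroblasts. All comparisons against negative siRNA share the same 3 control libraries. In bulk RNA, fewer cells of a type and less RNA per cell cannot be told apart.

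Recovered counts summed to 33.9 to 41.1 M units per library (whether a unit is 1 read is not known), with the highest 2 in Yap+Wwtr1 siRNA replicates 2 and 3. All 11 fibroblast markers were detected, and their sum was 2.99 to 3.47 M normalized counts in control libraries, 3.69 to 3.84 M after Yap siRNA, 2.95 to 3.19 M after Wwtr1 siRNA and 2.69 to 3.89 M after Yap+Wwtr1 siRNA. Within that list Dcn averaged 6518 in control libraries and 29232 with both siRNAs, Pdgfra 4538 and 15273, and Vim 185221 and 111278. Markers listed for other cell types were also detected. The summed level of 11 cardiomyocyte markers was 43299 to 76295 in control libraries and 72473 to 95737 after Yap+Wwtr1 siRNA. The sum of 9 smooth muscle and pericyte markers, which include Acta2 and Tagln, was 423552 to 563561 in control libraries, 274834 to 364946 after Yap siRNA, 359190 to 475501 after Wwtr1 siRNA and 151653 to 289995 after Yap+Wwtr1 siRNA. Most of this sum is Acta2, which averaged 279963 in control libraries and 127023 with both siRNAs, and Tagln, with 157867 and 72654. The study lists both genes among the contractile ones of a cluster of myofibroblasts (activated fibroblasts). This sum therefore does not mark smooth muscle cells alone. In the combined depletion 5 of the 9 had a higher mean than in control libraries, among them the pericyte markers Kcnj8 (78 and 313) and Abcc9 (518 and 1979) and the smooth muscle gene Myh11 (4373 and 6061). The 10 macrophage markers summed to 12618 to 18458 in control libraries, 7761 to 11601 after Wwtr1 siRNA and 4557 to 28538 after Yap+Wwtr1 siRNA. The 10 endothelial markers summed to 4553 to 5095 in control libraries, 3774 to 4198 after Yap siRNA, 5774 to 6193 after Wwtr1 siRNA and 4255 to 5290 after Yap+Wwtr1 siRNA. Most of that sum is Flt1, which averaged 3456 in control libraries, 2289 after Yap siRNA and 4326 after Wwtr1 siRNA. After Yap siRNA 7 of the 10 had a higher mean than in control libraries, such as Tek (594 against 406 in controls) and Tie1 (406 against 283), and after Wwtr1 siRNA 7 did. The 6 epicardial and mesothelial markers summed to 4406 to 5647 in control libraries and 3678 to 5385 after Yap+Wwtr1 siRNA. None of these markers was at 0 in all libraries, and the part of these cells in the results was not tested.

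Yap and Wwtr1 do not bind DNA themselves. They enter the nucleus when the Hippo kinases are inactive and act through TEAD factors, which recognize the DNA core GGAATG and activate transcription weakly without a coactivator. VGLL proteins carry a short TEAD-binding motif, the Tondu domain, and Vgll4 uses it to compete with Yap for TEAD and to repress TEAD targets. In cardiac fibroblasts, TEAD activity is known for driving matricellular genes such as Ccn1 and Ccn2.

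Yap1 was lowered by its own siRNA and was not lowered detectably by Wwtr1 siRNA. Levels are deposited normalized counts, which are counts divided by a size factor of the library, and are comparable between libraries for the same gene. Yap1 was at 3042, 3776 and 2984 normalized counts in negative siRNA replicates 1 to 3 and at 532, 576 and 625 after Yap siRNA. The groups did not overlap, as in 26.1% of all genes tested, and the log2 difference was -2.49 (SE 0.22, limma adjusted p = 0.000271). After Wwtr1 siRNA Yap1 was at 3169, 3151 and 3184, within the range of the control libraries. That log2 difference was -0.04 with a 95% interval of -0.51 to 0.44 (limma adjusted p = 0.944). After Yap+Wwtr1 siRNA it was at 713, 739 and 1474, so replicate 3 kept about as much Yap1 as the other 2 replicates together. The group still lay below all control libraries, as in 21.5% of all genes tested, with a log2 difference of -1.82 (SE 0.22, limma adjusted p = 0.000107).

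The region upstream of Yap1 is shown because Yap1 is the coactivator of these factors and its window holds the TEAD core. Its 250 bases before the RefSeq start (GRCr8, chr8:13451438-13451687, minus strand) read as follows, with GGAATG in capitals, 116 bases before the start.
Yap1: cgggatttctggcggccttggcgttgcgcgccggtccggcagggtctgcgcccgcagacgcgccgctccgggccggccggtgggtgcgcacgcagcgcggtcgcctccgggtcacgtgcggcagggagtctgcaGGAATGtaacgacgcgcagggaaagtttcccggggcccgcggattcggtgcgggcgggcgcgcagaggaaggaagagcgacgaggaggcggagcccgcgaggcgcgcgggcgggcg

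Wwtr1, the other coactivator, behaved in the same manner toward its own siRNA. It was at 2364, 2565 and 2280 normalized counts in negative siRNA replicates 1 to 3 and at 524, 550 and 637 after Wwtr1 siRNA. All 3 depleted libraries lay below every other group, as in 2.72% of all genes tested, and the log2 difference was -2.08 (SE 0.13, limma adjusted p = 2.33e-05). Yap siRNA left it at 2134, 2500 and 2374, overlapping the controls, with a log2 difference of -0.04 and a 95% interval of -0.32 to 0.24 (limma adjusted p = 0.902). A change of either coactivator in response to loss of the other was therefore not detected, and the intervals bound it. After Yap+Wwtr1 siRNA Wwtr1 was at 818, 731 and 1056, a log2 difference of -1.48 (SE 0.13, limma adjusted p = 1.66e-05).

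Depletion of Wwtr1 was less deep in the combined transfection than in the single transfection. Its level was 0.59 higher on the log2 scale after Yap+Wwtr1 siRNA than after Wwtr1 siRNA (SE 0.13, limma adjusted p = 0.00804), and the libraries did not overlap. For Yap1 the corresponding difference from Yap siRNA was 0.67 (SE 0.22), which did not pass the threshold (limma adjusted p = 0.0623). It passed without Yap+Wwtr1 siRNA replicate 1 (limma adjusted p = 0.0369) or replicate 2 (0.0486), by edgeR (0.0494) and by DESeq2 (0.00722). Without replicate 3 of that group the difference was 0.33 (limma adjusted p = 0.0581). The summed level of Yap1 and Wwtr1 was 5670 ± 585 normalized counts (SD, n = 3) in control libraries and 1843 ± 595 after Yap+Wwtr1 siRNA, so that it dropped by 67.5%. After Yap siRNA the sum fell by 48.6%, and after Wwtr1 siRNA it fell by 34.1%. Wwtr1 made up 42.5% of the sum in control cells, 80.2% after Yap siRNA, 15.2% after Wwtr1 siRNA and 48.3% after both. Sums of different genes weight each by its transcript length as well as its abundance, so these shares compare libraries and not genes. Each of the 3 siRNA groups was separated from the controls in summed level, and the exact two-sided permutation test gave p = 0.1, the smallest that 3 against 3 libraries allow.

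**Figure D1:**
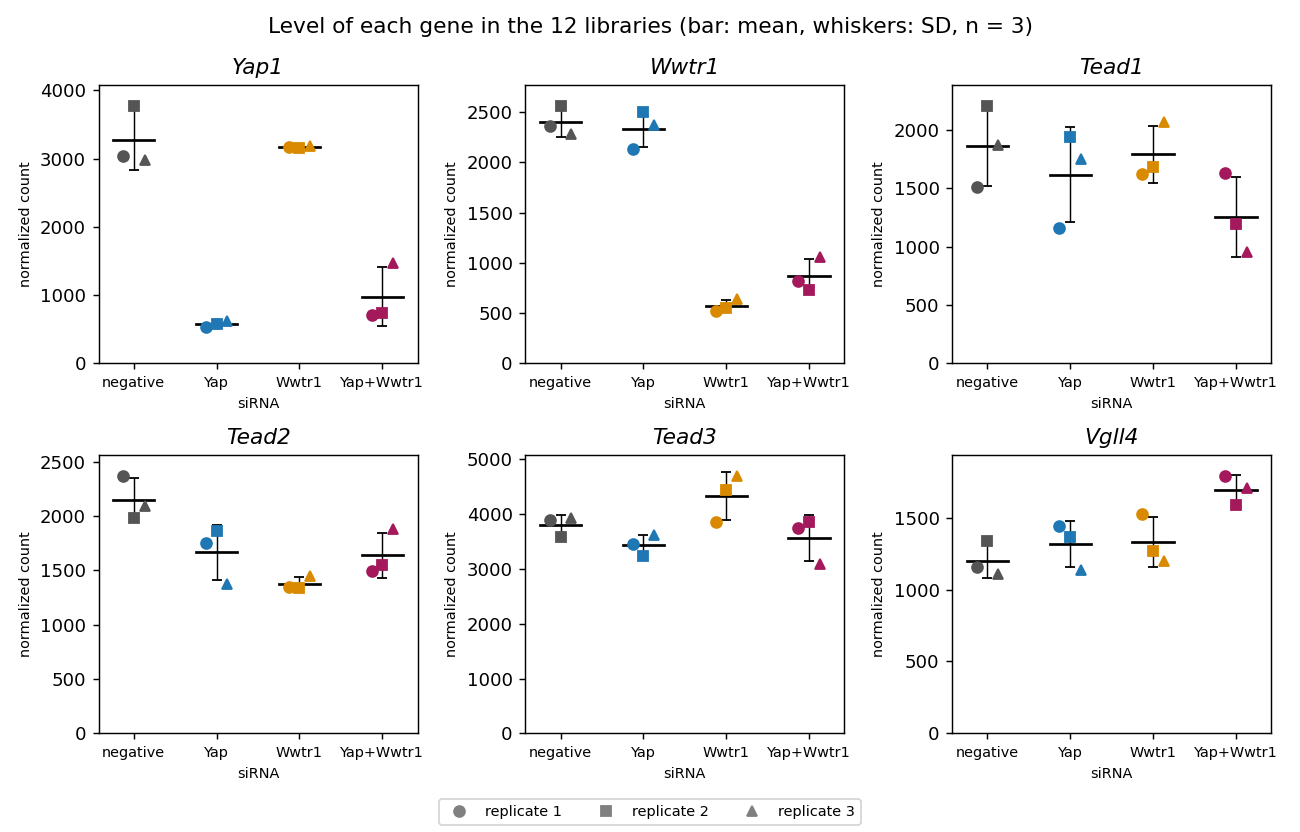
Normalized count (y axis, from 0) of the 6 measured genes in the 12 libraries, by siRNA (x axis). Each point is a library with its replicate number as the symbol, the bar is the mean and the whiskers are the SD (n = 3). Tead2 is highest in the 3 negative siRNA libraries, and Vgll4 is highest in the 3 Yap+Wwtr1 siRNA libraries.

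Among the TEAD factors, Tead2 was lower when Wwtr1 was depleted. It was at 2371, 1981 and 2088 normalized counts in control libraries and at 1351, 1340 and 1446 after Wwtr1 siRNA. No library overlapped, as in 32.7% of all genes tested (16.0% lower, 16.6% higher). The log2 difference was -0.63 with SE 0.12 (limma adjusted p = 0.00784), which is 0.644 of the control level with a 95% interval of 0.535 to 0.775. The fall passed in all 24 alternative fits. The macrophage marker sum was also below all control libraries after Wwtr1 siRNA, with 10 of its 10 genes lower in mean. After Yap siRNA 9 of the 10 were lower in mean, and with both siRNAs 8. The part of those cells in the Tead2 values was not tested. After Yap siRNA Tead2 was at 1752, 1867 and 1376, also below every control library, as 12.6% of all genes tested were. The log2 difference of -0.37 (SE 0.12) did not pass (limma adjusted p = 0.114). With a replicate block on the libraries without Yap+Wwtr1 siRNA it did pass (limma adjusted p = 0.0367), and without Yap siRNA replicate 3 the difference was -0.24.

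After Yap+Wwtr1 siRNA Tead2 was at 1495, 1548 and 1876, and the log2 difference from negative siRNA was -0.39 (SE 0.12, limma adjusted p = 0.0287). This call was lost without negative siRNA replicate 1 (limma adjusted p = 0.104), negative siRNA replicate 3 (0.0623), Yap+Wwtr1 siRNA replicate 1 (0.0983) or Yap+Wwtr1 siRNA replicate 2 (0.0875). In all, the 3 control libraries had more Tead2 than each of the 9 depleted libraries, as 3.59% of the 11871 genes tested did. With both coactivators depleted, a fall of Tead2 below the single depletions was not detected. Depletion was unequal in this comparison, as Wwtr1 averaged 868 normalized counts with both siRNAs and 570 after Wwtr1 siRNA. Yap1 averaged 975 with both and 578 after Yap siRNA. The log2 difference of Tead2 from Wwtr1 siRNA was 0.24 with a 95% interval of -0.02 to 0.51 (limma adjusted p = 0.187), or 0.14 without Yap+Wwtr1 siRNA replicate 3. From Yap siRNA it was -0.02 with an interval of -0.28 to 0.25 (limma adjusted p = 0.944). The interaction, the combined difference minus the sum of the single differences, was 0.62 (SE 0.17) and did not pass in limma (adjusted p = 0.114). DESeq2 on the recovered counts called it (adjusted p = 0.0331). Every interaction given here rests on groups with the same unequal depletion, and its part in them was not tested.

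Tead1, which is widely expressed and regulates muscle genes in the heart, spread more between replicates. It was at 1515, 2210 and 1872 normalized counts in control libraries, at 1163, 1944 and 1748 after Yap siRNA and at 1620, 1680 and 2073 after Wwtr1 siRNA. These groups overlapped broadly. Yap+Wwtr1 siRNA gave 1629, 1193 and 950, so replicate 1 lay inside the control range and replicates 2 and 3 below it. The log2 difference for the combined depletion was -0.59 (SE 0.22, 95% interval -1.07 to -0.10) and did not pass (limma adjusted p = 0.0633). It passed without Yap+Wwtr1 siRNA replicate 1 (limma adjusted p = 0.0221), negative siRNA replicate 1 (0.0461) or Yap siRNA replicate 1 (0.0376), and also with upper-quartile scaling (0.0474) and by DESeq2 (0.0332). The single depletions gave log2 differences of -0.22 and -0.05, with 95% intervals of -0.71 to 0.27 for Yap siRNA and -0.54 to 0.44 for Wwtr1 siRNA. Each Yap siRNA library was below the control library of its own number. With the replicate block on the libraries without Yap+Wwtr1 siRNA the difference did not pass (limma adjusted p = 0.233). In fits that took no account of this pairing, the value for Yap siRNA moved with single libraries. It was -0.00017 without Yap siRNA replicate 1, -0.09 without negative siRNA replicate 2, -0.36 without negative siRNA replicate 1 and -0.37 without Yap siRNA replicate 2.

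Tead3, the third TEAD factor measured, did not pass against negative siRNA in any group. Negative siRNA libraries had 3893, 3580 and 3924 normalized counts and Yap siRNA libraries 3443, 3225 and 3607. Wwtr1 siRNA libraries had 3853, 4442 and 4698, and Yap+Wwtr1 siRNA libraries 3740, 3859 and 3091. All Yap siRNA libraries were below and all Wwtr1 siRNA libraries above the control mean. The endothelial marker sum, most of it Flt1, was likewise below all control libraries after Yap siRNA and above them after Wwtr1 siRNA, although 7 of its 10 genes had a higher mean than the controls after Yap siRNA. The part of those cells in these values was not tested. The direct comparison of the Yap siRNA against the Wwtr1 siRNA group gave a log2 difference of -0.34 (SE 0.10, limma adjusted p = 0.0541). With the replicate block on the libraries without Yap+Wwtr1 siRNA the same difference passed (limma adjusted p = 0.00745). It also passed without Wwtr1 siRNA replicate 1 (limma adjusted p = 0.0381) or Yap+Wwtr1 siRNA replicate 3 (0.0217), with the minimum mean of 100 (0.0481) and by DESeq2 (0.0167). Against Wwtr1 siRNA, Yap+Wwtr1 siRNA gave -0.28 (limma adjusted p = 0.0608), which passed without Wwtr1 siRNA replicate 1 (0.0303), with upper-quartile scaling (0.0483) and by DESeq2 (0.0382). Without Yap+Wwtr1 siRNA replicate 3 that difference was -0.18.

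The summed level of Tead1, Tead2 and Tead3 differed little among control libraries, and every library given Yap siRNA, alone or combined, lay below them, as did 2 of the 3 Wwtr1 siRNA libraries. It was 7812 ± 62.7 normalized counts (SD, n = 3) in control libraries, 6708 ± 339 after Yap siRNA, 7501 ± 697 after Wwtr1 siRNA and 6460 ± 488 after Yap+Wwtr1 siRNA. The control libraries held 7772 to 7884, and all Yap and Yap+Wwtr1 siRNA libraries held less, between 5917 and 7035. The changes were -14.1% after Yap siRNA and -17.3% after Yap+Wwtr1 siRNA, each with an exact permutation p = 0.1, the smallest possible. The smooth muscle and pericyte marker sum, most of it Acta2 and Tagln, was also below all control libraries in both groups, while 2 of its 9 genes after Yap siRNA and 5 after Yap+Wwtr1 siRNA had a higher mean than the controls. The part of smooth muscle cells, pericytes or activated fibroblasts in this difference was not tested. The Wwtr1 siRNA libraries held 6825, 7462 and 8217, a mean change of -3.97% (exact permutation p = 0.7). In that group Tead2 made up 18.5% ± 1.18 of the sum (SD, n = 3), compared with 27.5% ± 2.64 in control cells. Tead3 made up 57.7% ± 1.61, compared with 48.6% ± 2.22. Both shares were separated from the controls in all 3 libraries (exact permutation p = 0.1 each). After Yap+Wwtr1 siRNA the Tead3 share was 55.1% ± 3.16 and was separated likewise (exact permutation p = 0.1).

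**Figure D2:**
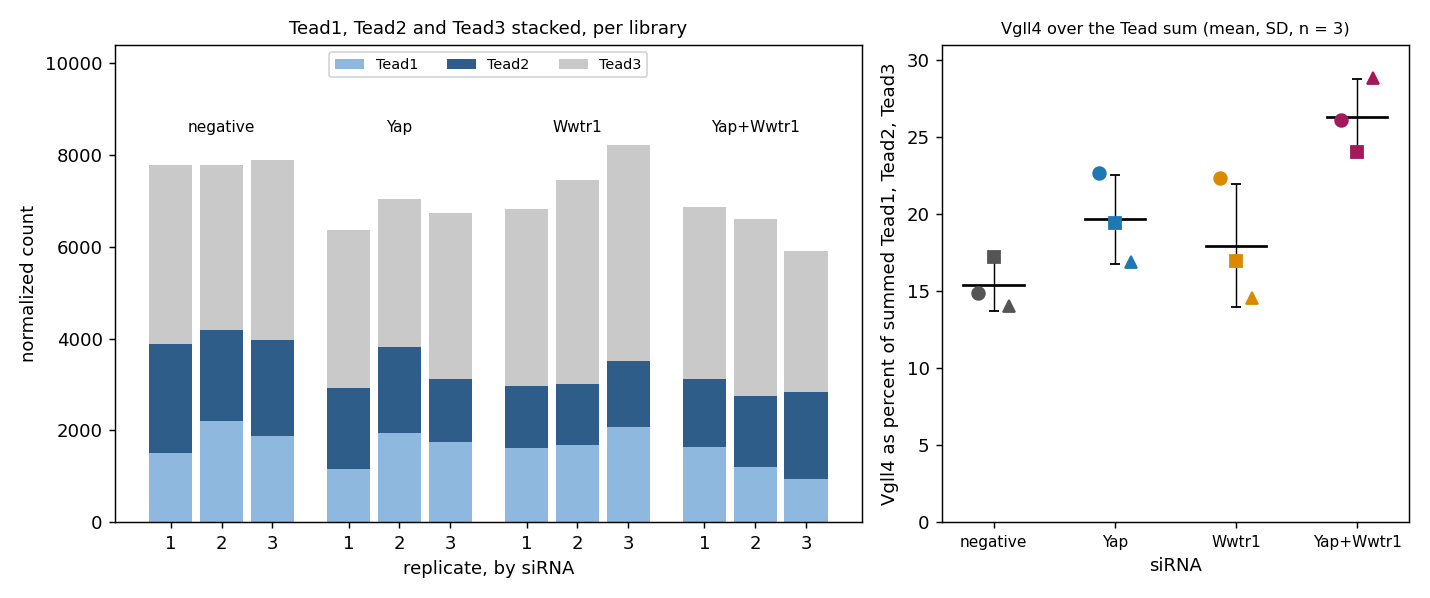
Left, normalized counts of Tead1, Tead2 and Tead3 stacked for each library (x axis, replicate by siRNA). Right, Vgll4 as percent of the summed Tead1, Tead2 and Tead3 counts by siRNA, with library points (circle, square and triangle for replicates 1, 2 and 3), mean and SD (n = 3). Tead2 narrows from 27.5% to 18.5% of the sum after Wwtr1 siRNA, and the Vgll4 ratio is highest in the 3 Yap+Wwtr1 siRNA libraries.

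Vgll4, the TEAD cofactor that opposes Yap, was the member that rose, and it did so in the combined depletion. It was at 1156, 1337 and 1108 normalized counts in control libraries and at 1792, 1585 and 1707 after Yap+Wwtr1 siRNA. The log2 difference was 0.50 (SE 0.12, limma adjusted p = 0.00704), a 1.41-fold level with a 95% interval of 1.18 to 1.69. It passed in all 23 alternative fits. Yap siRNA gave 1442, 1367 and 1137 and Wwtr1 siRNA gave 1524, 1265 and 1196. These single depletions overlapped the controls, with log2 differences of 0.13 (95% interval -0.13 to 0.39) and 0.14 (-0.11 to 0.40). The 3 Yap+Wwtr1 siRNA libraries had more Vgll4 than each of the other 9 libraries, as 8.63% of the genes tested did.

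Whether the combined depletion exceeded each single depletion in Vgll4 was less clear. The log2 differences were 0.37 from Yap siRNA (limma adjusted p = 0.0576) and 0.36 from Wwtr1 siRNA (0.0524), both with SE 0.12. With a replicate block over all libraries both passed (limma adjusted p = 0.0321 and 0.0299), although the Yap+Wwtr1 siRNA libraries were not found to pair by number with the others. The difference from Yap siRNA also passed without Wwtr1 siRNA replicate 1 (limma adjusted p = 0.0449). That from Wwtr1 siRNA passed without Wwtr1 siRNA replicate 1 (0.0242) or Yap siRNA replicate 3 (0.0395), and with the minimum mean of 100 (0.0473). DESeq2 called both (adjusted p = 0.0304 and 0.0326). The interaction was 0.23 with a 95% interval of -0.14 to 0.59 (limma adjusted p = 0.602). It was 0.15 without negative siRNA replicate 2 and 0.13 without Yap siRNA replicate 3.

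Set against the TEAD factors, Vgll4 was separated from the controls after the combined depletion. This follows from the higher Vgll4 and the lower Tead sum given above and is no further test of either. Vgll4 equalled 15.4% ± 1.64 of the summed Tead counts in control libraries (SD, n = 3) and 26.3% ± 2.42 after Yap+Wwtr1 siRNA, with no overlap (exact permutation p = 0.1, the smallest possible). After Yap siRNA the ratio was 19.7% ± 2.89 and after Wwtr1 siRNA 18.0% ± 3.98, with exact permutation p = 0.2 and 0.5 in tests that took no account of the pairing by number. Each Yap siRNA library exceeded the control library of its own number, with 22.7% against 14.9%, 19.4% against 17.2% and 16.9% against 14.1% in replicates 1 to 3. After Wwtr1 siRNA this was so in replicates 1 and 3, and replicate 2 had 17.0% against 17.2%. In absolute terms Vgll4 was at 1585 normalized counts in Yap+Wwtr1 siRNA replicate 2, which had the smallest remaining coactivator sum, 1470. It was at 1707 in replicate 3, with the largest sum, 2530, and at 1792 in replicate 1, with 1531. The samples fall into clusters by group, so no correlation between coactivator and partner level is given.

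The region upstream of Vgll4 is shown because Vgll4 rose when the TEAD coactivators were depleted. RefSeq gives 3 starts for Vgll4, and the window of the second start holds the reverse complement of the core, CATTCC, at 208 and at 16 bases before the start. Its 250 bases before that start (GRCr8, chr4:149710215-149710464, minus strand) follow, with the matches in capitals.
Vgll4: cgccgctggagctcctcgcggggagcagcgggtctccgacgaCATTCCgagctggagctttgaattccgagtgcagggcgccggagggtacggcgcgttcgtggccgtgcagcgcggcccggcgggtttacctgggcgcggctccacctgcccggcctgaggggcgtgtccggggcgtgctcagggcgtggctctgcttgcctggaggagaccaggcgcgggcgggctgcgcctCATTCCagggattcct

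GGAATG was searched on both strands, as GGAATG and CATTCC, in windows of 300 bases, 250 before to 50 after each start, with overlapping matches allowed, though none of those in the members' windows overlapped. Of 33469 rat RefSeq promoter windows, 14.2% held a match. Windows were found for 4 of the 6 measured members. The windows of Wwtr1 and Tead3 and of the other Vgll4 starts held no match. A match is a description of the sequence, and binding was not measured. The build of these sequences differs from that of the expression table, which was joined by gene symbol.

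**Figure D3:**
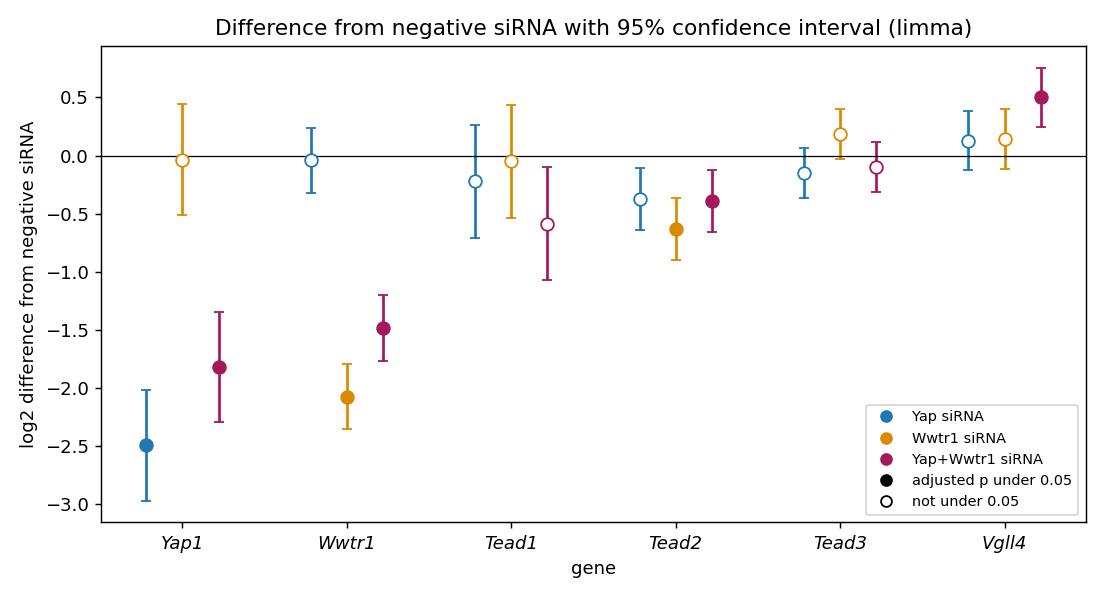
Log2 difference from negative siRNA (y axis) of the 6 genes (x axis) for each siRNA group, as limma estimate with its 95% interval. Filled points have an adjusted p under 0.05. Vgll4 lies above 0 after Yap+Wwtr1 siRNA (0.50), and Tead2 lies below 0 in all 3 groups.

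Counted over the 6 members, Yap siRNA changed 1, Yap1 itself, where 4.8% of all genes tested were called. Wwtr1 siRNA changed 2, Wwtr1 and Tead2, against 8.96% of all genes. Yap+Wwtr1 siRNA changed 4, with Yap1, Wwtr1 and Tead2 lower and Vgll4 higher, against 32.8% of all genes. Yap1 and Wwtr1 are the siRNA targets, so their calls follow from the design. Leaving them out, 2 of the 4 partners were called after Yap+Wwtr1 siRNA and Tead2 alone after Wwtr1 siRNA. No partner was called after Yap siRNA or in the comparisons between siRNA groups. By direction, 17.1% of all genes rose and 15.6% fell after Yap+Wwtr1 siRNA, 3.02% and 1.78% after Yap siRNA, and 5% and 3.96% after Wwtr1 siRNA. Between Yap+Wwtr1 and Yap siRNA 1 member was called, Wwtr1, against 13.8% of all genes. Between Yap+Wwtr1 and Wwtr1 siRNA 2 were called, Yap1 and Wwtr1, against 19.9%, and between Yap and Wwtr1 siRNA the same 2 genes, against 8.79%. The limma interaction was called for 0 members against 1.03% of all genes. Its unadjusted p was under 0.05 for 3 members, Yap1 (0.0411), Wwtr1 (0.00456) and Tead2 (0.00397). The same held for 14.0% of all genes. For the interaction, edgeR called 0 members among 102 genes and DESeq2 called 2, Wwtr1 and Tead2, among 500 genes.

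**Figure D4:**
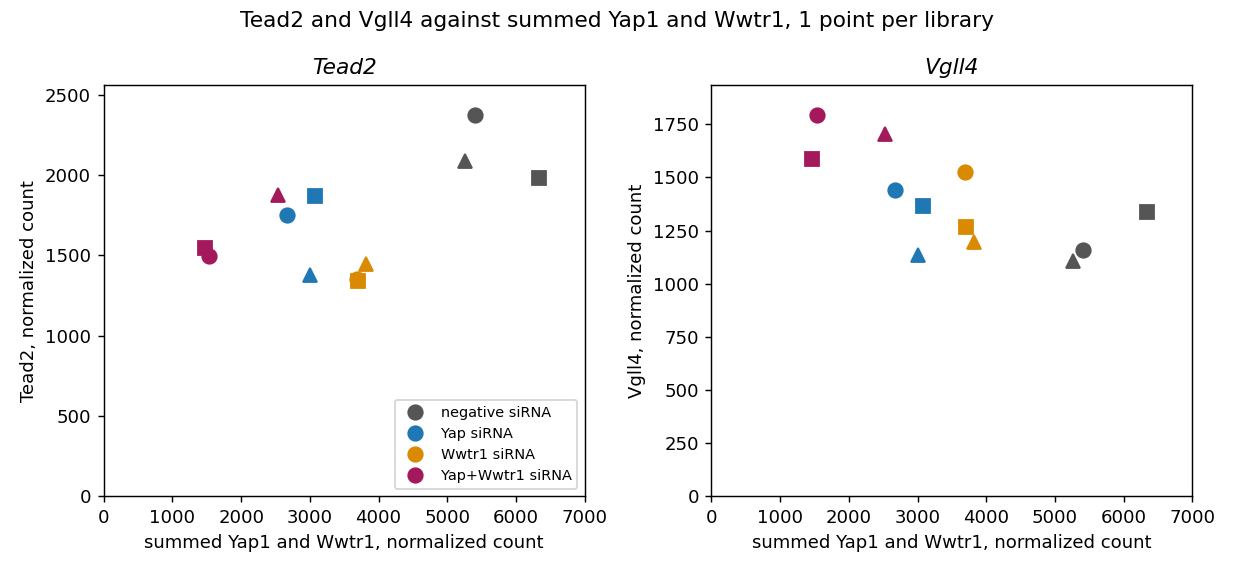
Tead2 (left) and Vgll4 (right) normalized counts (y axes) against the summed Yap1 and Wwtr1 counts (x axes), with a point per library, coloured by siRNA and with circle, square and triangle for replicates 1, 2 and 3. The 3 negative siRNA libraries lie at the right with the highest Tead2, and the Yap+Wwtr1 siRNA libraries at the left have the highest Vgll4.

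Other proteins that join TEAD on DNA or act as its coregulators were described by a list of 37 genes, of which 30 were tested. After Yap+Wwtr1 siRNA 8 were higher and 3 lower, or 26.7% and 10% of the list beside 17.1% and 15.6% of all genes, and the median log2 difference was 0.25, compared with 0.00 over all genes. The 11 called are 36.7% of the list, close to the 32.8% of all genes. Yap siRNA raised 2 and lowered 0, and Wwtr1 siRNA raised 2 and lowered 3. These are 6.67% and 16.7% of the list, beside 4.8% and 8.96% of all genes. The counts for single depletions rest on few libraries. The Yap siRNA count was 0 without negative siRNA replicate 3 or Yap siRNA replicate 1. It was 1 without negative siRNA replicate 1 or Yap siRNA replicate 2. The Wwtr1 siRNA count of 5 was 3 without negative siRNA replicate 2, negative siRNA replicate 3 or Wwtr1 siRNA replicate 2.

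Ccnd1 (cyclin D1, which drives entry into S phase) was higher in all 3 groups, most after Wwtr1 siRNA. It was at 3417, 2748 and 2544 normalized counts in control libraries, 4662, 4510 and 3880 after Yap siRNA, 6339, 5837 and 6256 after Wwtr1 siRNA and 4177, 4280 and 3752 with both. The log2 differences were 0.59, 1.09 and 0.50, and the interaction of -1.19 passed (limma adjusted p = 0.00524). Depleting both thus raised Ccnd1 by less than the sum of the single depletions, though each coactivator averaged more there than after its own siRNA alone. Smad3, the TGF-beta effector that meets Yap and TEAD on DNA, was also higher in each group, by 0.34, 0.69 and 0.66 (limma adjusted p = 0.0329, 0.000655 and 9.38e-05). Its relative Smad2 was lower, with a log2 difference of -0.31 after Wwtr1 siRNA and -0.60 after Yap+Wwtr1 siRNA (limma adjusted p = 0.0233 and 0.000124).

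The stress-induced factor Atf3, whose family binds AP-1 sites, was at 364, 436 and 367 normalized counts in control libraries and 555, 765 and 869 after Yap+Wwtr1 siRNA. That is a log2 difference of 0.89 (limma adjusted p = 0.00669). Tcf4, a basic helix-loop-helix factor, was higher by 0.61 in the same group (limma adjusted p = 0.00341), and the coactivator Ncoa1 by 0.50 (0.00111). Jun, an AP-1 subunit, was lower after Wwtr1 siRNA alone, with a log2 difference of -0.47 (limma adjusted p = 0.0228), and its value with both siRNAs was 0.10 (0.546). The interaction for Jun did not pass (limma adjusted p = 0.245). Ctbp2, a corepressor that ZEB factors recruit, was lower after Wwtr1 siRNA (-0.43, limma adjusted p = 0.00717) and with both (-0.39, 0.00385). Mef2a, a muscle and stress-responsive factor, had log2 differences of 0.27, 0.27 and -0.24 that did not pass, and an interaction of -0.79 that did (limma adjusted p = 0.0286).

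The Hippo kinases and scaffolds, which act upstream by phosphorylating or sequestering Yap and Wwtr1, were a list of 44 genes, 39 of them tested. Yap siRNA raised 3 and lowered 3, Wwtr1 siRNA raised 3 and lowered 3, and Yap+Wwtr1 siRNA raised 5 and lowered 10. The median log2 difference was -0.11 in the last group, and the 15 genes called are 38.5% of the list beside 32.8% of all genes. Each single depletion called 15.4% of the list, beside 4.8% and 8.96% of all genes. The Yap siRNA count of 6 was 3 without negative siRNA replicate 1, negative siRNA replicate 2 or Yap siRNA replicate 2. The lowered genes included Amotl2, Lats2 and Ajuba, which also stand in the target list described later. Amotl2, an angiomotin that tethers Yap outside the nucleus, was at 13706, 13894 and 15014 normalized counts in control libraries and 4105, 4235 and 4625 with both siRNAs. Its log2 difference was -1.72 (limma adjusted p = 4.55e-06), and the interaction of -0.97 passed (0.0155). Lats2, the kinase that phosphorylates Yap, was lower after Yap siRNA (-0.74, limma adjusted p = 0.00336) and with both (-0.93, 3.34e-05), while the value after Wwtr1 siRNA was -0.09 (0.584). Ajuba, a LIM protein that restrains Lats kinases, was lower in the same groups, by -0.77 (limma adjusted p = 0.00753) and -1.30 (2.98e-05).

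Several kinases, and a cofactor of kinases, changed after Wwtr1 siRNA. Tnik, a kinase of the Map4k family, was at 237, 272 and 277 normalized counts in control libraries and 629, 639 and 835 after Wwtr1 siRNA, a log2 difference of 1.41 (limma adjusted p = 0.000602). It was also higher after Yap siRNA (0.95) and with both (1.00), and its interaction of -1.36 passed (limma adjusted p = 0.0192). Mob1a, the activating subunit of Lats kinases, was lower after Wwtr1 siRNA (-0.80, limma adjusted p = 0.00230) and with both (-0.78, 0.000591). Map4k4 was lower after Wwtr1 siRNA alone at -0.57 (limma adjusted p = 0.00107), with an interaction of 0.51 that passed (0.0455). Stk38l, a relative of Lats, was lower there by -0.69 (limma adjusted p = 0.0478). Wwc2, a scaffold of Lats kinases, and the giant cadherin Fat1 were lower with both siRNAs, at -0.95 (limma adjusted p = 1.05e-05) and -0.62 (0.0159). Dchs1, the cadherin ligand of Fat4, was higher by 1.05 in that group (limma adjusted p = 1.54e-05).

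**Figure D5:**
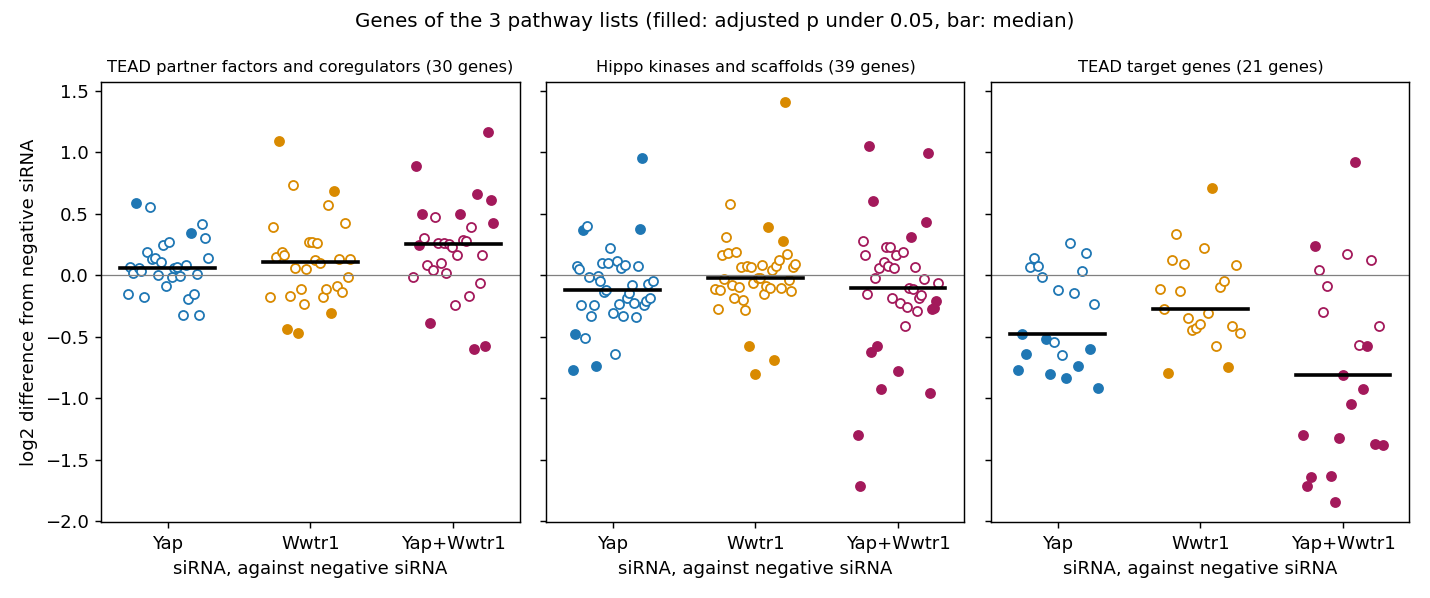
Log2 difference from negative siRNA (y axis) of every tested gene in the 3 pathway lists, by siRNA (x axis). Each point is a gene, filled points have an adjusted p under 0.05 and the bar is the list median. The TEAD target medians lie at -0.47, -0.28 and -0.81, and the partner list median reaches 0.25 after Yap+Wwtr1 siRNA.

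Of the 21 tested genes that are commonly taken as TEAD targets, 12 fell and 2 rose in the combined depletion. The list wrote 27 names, including aliases of Ccn1 and Ccn2 and the unmeasured Tead4. Yap siRNA lowered 9 and raised 0, Wwtr1 siRNA lowered 2 and raised 1, and Yap+Wwtr1 siRNA lowered 12 and raised 2. The medians were -0.47, -0.28 and -0.81 on the log2 scale, beside medians over all genes within 0.01 of 0. The 14 genes called with both siRNAs are 66.7% of the list beside 32.8% of all genes. Yap siRNA called 42.9% and Wwtr1 siRNA 14.3% of the list, beside 4.8% and 8.96% of all genes. The Yap siRNA count of 9 fell to 4 without negative siRNA replicate 1 or Wwtr1 siRNA replicate 2, to 3 without negative siRNA replicate 2 or Yap siRNA replicate 2, and to 2 without negative siRNA replicate 3 or Yap siRNA replicate 1. The Wwtr1 siRNA count of 3 rose to 5 without Yap+Wwtr1 siRNA replicate 3.

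Ccn2, a matricellular protein of scars, was at 104083, 111609 and 134840 normalized counts in control libraries, 58480, 62474 and 80256 after Yap siRNA, 68613, 87455 and 102879 after Wwtr1 siRNA and 33133, 39349 and 25769 with both. All depleted libraries were below the controls, as in 3.59% of all genes tested. The log2 differences were -0.81 (limma adjusted p = 0.0342), -0.45 (0.169) and -1.85 (3.93e-05). Its relative Ccn1 showed -0.52 (limma adjusted p = 0.0407), -0.35 (0.116) and -1.63 (9.76e-06). Ankrd1, a muscle and fibroblast stress gene, passed in every group, at -0.64 (limma adjusted p = 0.0293), -0.79 (0.00530) and -1.64 (1.66e-05). The growth factor gene Tgfb2 passed after Yap siRNA (-0.92, limma adjusted p = 0.0387) and with both (-1.38, 0.000648), and Fjx1 likewise (-0.83, 0.00998, and -1.05, 0.000260).

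A few targets differed from this pattern. Nt5e, the surface enzyme CD73, was at 1177, 984 and 870 normalized counts in control libraries and 521, 717 and 565 after Wwtr1 siRNA, a log2 difference of -0.75 (limma adjusted p = 0.00941). With both siRNAs its difference was 0.12 (limma adjusted p = 0.577), and the interaction of 0.69 did not pass (0.154). Gadd45a, a DNA damage response gene, was higher after Wwtr1 siRNA (0.71, limma adjusted p = 0.0360) and with both (0.92, 0.00304). F3, which encodes tissue factor, did not pass against negative siRNA in any group and was at 268, 173 and 193 normalized counts after Yap siRNA and 328, 381 and 445 after Wwtr1 siRNA.

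Genes whose pattern over the 12 libraries was most like that of each member are given as a description, by Pearson r of log2(normalized count + 1) among the 10096 genes averaging 100 normalized counts or more. The libraries share groups and scaling, so the points are not independent. Closest to Yap1 were Rab6a, Ipo7 and Heyl (r = 0.93 each), and closest to Wwtr1 were Clns1a, RGD1560108 and Brcc3 (0.98 each). Heyl, a Notch-responsive repressor, had group means of 6683 normalized counts in control libraries, 3386 after Yap siRNA, 7094 after Wwtr1 siRNA and 4062 with both. Clns1a had 2151, 2005, 1081 and 1281 in the same order. Closest to Tead1 were Macf1 (0.98), Afap1 (0.97) and Itga1 (0.96), and closest to Tead2 were Rpia (0.89), Cox19 (0.86) and Cep83 (0.85). Closest to Tead3 were Sh3bp4 (0.96), Acot7 (0.93) and Nme4 (0.92). Vgll4 was most like Lrrc32 (0.99), Etfdh (0.97) and Tgfbr3 (0.95). Lrrc32, which anchors latent TGF-beta at the cell surface, averaged 12420 normalized counts in control libraries and 25260 with both siRNAs, and Tgfbr3, a TGF-beta coreceptor, averaged 827 and 3052.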

How the data were processed

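Signal was measured by RNA sequencing in 12 libraries, 3 per siRNA group, with the group and replicate of each read from its title. Per the study's methods and the labels, the authors trimmed adapters and low-quality bases with Trim Galore 0.6.5, aligned to the rn6 genome in HISAT2 and assembled transcripts in StringTie, then normalized in DESeq2. The deposited signal column of each library holds counts over its size factor, and 100% of values were whole multiples of a library-specific step (tolerance 0.001). Whether the recovered units are reads, mates or coverage-derived counts is not given in the sources used here, nor is strand use or the treatment of reads shared by TEAD paralogs. The authors' tables of fold changes and p-values were not used.

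The members and lists were chosen with earlier results of these data known. The main test was limma 3.58.1 (R 4.3.3, trend) on log2(normalized count + 1) with all 12 libraries in the same fit. It covered the 11871 genes averaging 10 normalized counts or more, was two-sided, and used Benjamini-Hochberg adjustment over all of them with a threshold of 0.05. The pseudocount understates changes of low genes. Intervals are 95%. Named list genes were the up to 4 called per list and comparison with the largest absolute log2 difference and a mean of at least 100. Likeness used the 3 genes with the highest r. Steps were tested on simulated data.

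Replicates came from separate litters per the study's methods, which do not say that a number is shared across groups. Deviations of same-numbered libraries correlated at 0.104 to 0.276 among the negative, Yap and Wwtr1 siRNA groups (9 pairs). Where Yap+Wwtr1 siRNA was involved they correlated at -0.127 to 0.180, so only the former groups were taken as paired. The main fit and its p-values did not include this pairing, which the replicate block alternatives did. Alternatives were pseudocounts of 0.1 and 10, no filter and a minimum mean of 100, scaling by TMM or upper quartile, count tests on the recovered reads (edgeR 4.0.16, DESeq2 1.42.0), fits without the other groups, with a replicate block or without the trend, and each library left out.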

Additional observations from a re-analysis of the deposited data

Results flagged for a closer look

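Tead3 stood out because every Yap siRNA library lay below and every Wwtr1 siRNA library above the control mean, as in 8.26% (981) of the 11871 genes tested. Neither group passed against negative siRNA (log2 difference -0.15, limma adjusted p = 0.440, and 0.19, 0.279). Yap siRNA replicate 3 (3607 normalized counts) and Wwtr1 siRNA replicate 1 (3853) lay inside the control range of 3580 to 3924. The difference between the groups was -0.34 on the log2 scale (95% interval -0.55 to -0.12, limma adjusted p = 0.0541), and it ran from -0.42 to -0.27 over all alternatives, with adjusted p-values of 0.00745 to 0.176. It passed in 5 of 24 alternatives.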

How the results depend on the processing

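Over all alternatives run, Tead2 with Wwtr1 siRNA (log2 difference -0.69 to -0.56) and Vgll4 with Yap+Wwtr1 siRNA (0.44 to 0.58) kept direction and call, while Tead2 with Yap+Wwtr1 siRNA passed in 19 of 23. With the replicate block on the libraries without Yap+Wwtr1 siRNA, 2 members were called for Yap siRNA, since Tead2 was added, and 1904 genes were called in place of 570. For Yap+Wwtr1 against Yap siRNA, 2 members were called with the block over all libraries, 2 by edgeR and 3 by DESeq2. DESeq2 called 4 for Yap+Wwtr1 against Wwtr1 siRNA, where it called 2887 genes in place of 2359, and 2 for the interaction, where it called 500 in place of 122. The block over all libraries added Vgll4 to Yap+Wwtr1 against Wwtr1 siRNA (3 members, 2770 genes). The block without Yap+Wwtr1 siRNA added Tead3 to Yap against Wwtr1 siRNA (3 members, 2680 genes in place of 1044). No other count of members differed with a block. Over all genes, Yap+Wwtr1 against Yap siRNA gave 1637 calls, 2123 with the block, 1588 by edgeR, 2193 by DESeq2 and 774 in a fit of those groups alone. The causes were not tested.

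The count over all genes for Yap siRNA, 570, was 341, 260 and 136 without negative siRNA replicates 1, 2 and 3, 111 and 160 without Yap siRNA replicates 1 and 2, and 332 without Wwtr1 siRNA replicate 2. That for Wwtr1 siRNA, 1064, was 695 and 563 without negative siRNA replicates 2 and 3, 567 and 548 without Wwtr1 siRNA replicates 1 and 2, and 2527 with the block without Yap+Wwtr1 siRNA. The count for Yap siRNA was 874 with the block over all libraries, 294 without the trend and 1013 by DESeq2. Yap against Wwtr1 siRNA called 669, 434 and 496 genes without Wwtr1 siRNA replicates 1, 2 and 3, and 513 and 575 without Yap siRNA replicates 1 and 2. Yap+Wwtr1 against Wwtr1 siRNA called 1463 and 1288 without Wwtr1 siRNA replicates 2 and 3. Yap+Wwtr1 against Yap siRNA called 758 without Yap siRNA replicate 3 and 1063 without Yap+Wwtr1 siRNA replicate 1. The interaction called 31 (without Wwtr1 siRNA replicate 2) to 160 genes when a library was left out, 231 with the block and 60 without the trend. It was at most 79 when the library left out was a control, any Wwtr1 siRNA library, Yap siRNA replicate 2 or 3, or Yap+Wwtr1 siRNA replicate 2. Leaving out a library gave 1 to 2 members (758 to 1873 genes) for Yap+Wwtr1 against Yap siRNA, 2 to 4 (1288 to 2340 genes) against Wwtr1 siRNA and 3 to 5 (2745 to 4054 genes) against negative siRNA. Yap siRNA list counts were 0 to 3 for partner factors, 3 to 7 for Hippo genes and 2 to 9 for targets. Wwtr1 siRNA list counts were 3 to 6 for partner factors and 2 to 5 for targets. Some differences near 0 that had not passed changed sign on the log2 scale when a library was left out. Yap siRNA gave -0.0925 to 0.0215 for Wwtr1, with 0.00574 also above 0. Wwtr1 siRNA gave -0.10 to 0.0725 for Yap1 and -0.19 to 0.0804 for Tead1, with 0.0175 also above 0. Yap+Wwtr1 siRNA gave -0.16 to 0.000993 for Tead3. Against Yap siRNA it gave -0.15 to 0.0710 for Tead2, with 0.0253, 0.0455 and 0.0204 also above 0, and -0.00926 to 0.15 for Tead3. Yap against Wwtr1 siRNA gave -0.32 to 0.0502 for Tead1 and -0.0859 to 0.0890 for Vgll4, with 0.0869 also above 0. The share of Wwtr1 in the coactivator sum with Yap siRNA rose by 84.2% without negative siRNA replicate 2, compared with 88.6%. Groups of 3 limit all p-values from exact tests to 0.1 or more.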
